A study of Mus musculus with 4 samples.

Results

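The miRNAs described here are the 10 arms of 6 hairpins, miR-673, miR-337, miR-540, miR-665, miR-341 and miR-370, taken by name from the 1907 mature miRNAs counted in each library. They lie in the proximal part of the imprinted Dlk1-Dio3 region of mouse chromosome 12, ahead of the large cluster that starts at miR-379, and outside the group of miRNAs transcribed antisense to Rtl1. Small RNA was sequenced from liver of C57BL/6 mice aged 15 weeks in 2 groups of 2 libraries. One group served as controls. The other received thioacetamide (TAA), a hepatotoxin that causes liver fibrosis in rodents, over 10 weeks, with 3 intraperitoneal doses of 200 mg/kg in each week. The labels name neither a vehicle for the controls nor the animal behind each library, so the p-values measure the spread between these libraries. miR-122-5p, the defining miRNA of hepatocytes, was abundant in all of them, at 18285 and 21607 CPM (counts scaled to library size) in control and 17376 and 17500 CPM in TAA liver.

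The Dlk1-Dio3 region is controlled by parental origin. Its protein-coding genes, Dlk1, Rtl1 and Dio3, are expressed from the paternal chromosome, and its long non-coding RNAs Meg3, Rian and Mirg, with the miRNAs and small nucleolar RNAs of the same strand, from the maternal one. The non-coding RNAs are prominent in embryo, placenta and brain and low in adult liver. A miRNA hairpin is cut by Drosha and Dicer into a duplex of a 5p and a 3p strand, of which Argonaute usually keeps one, and bases 2 to 8 of the kept strand, the seed, select target mRNAs. miR-370 has been studied in liver as a regulator of lipid metabolism, with Cpt1a, which encodes an enzyme of mitochondrial fatty acid uptake, among its reported targets.

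The mature sequences are shown because none of the 10 seeds is shared within the set, so the arms differ in the part that selects targets. They are taken from RefSeq (GRCm38.p6), where all 10 names matched, and are written 5′ to 3′ with the seed in capitals.
mmu-miR-673-5p: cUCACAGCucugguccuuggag
mmu-miR-673-3p: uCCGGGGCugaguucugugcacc
mmu-miR-337-5p: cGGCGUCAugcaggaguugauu
mmu-miR-337-3p: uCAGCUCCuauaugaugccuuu
mmu-miR-540-5p: cAAGGGUCacccucugacucugu
mmu-miR-540-3p: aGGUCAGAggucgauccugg
mmu-miR-665-3p: aCCAGGAGgcugaggucccu
mmu-miR-341-3p: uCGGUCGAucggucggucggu
mmu-miR-370-5p: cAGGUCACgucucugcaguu
mmu-miR-370-3p: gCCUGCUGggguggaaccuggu
The arms are 20 to 23 bases long. Their GC content ran from 40.9% (miR-337-3p) to 68.2% (miR-370-3p) with a median of 59.5%, against a median of 52.2% over the 1623 names of the files that matched the RefSeq table. Only miR-673-3p, miR-337-3p and miR-341-3p, 3 of the 10, begin with U, the base that opens 40.2% of those names.

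All 6 hairpins lie on the plus strand. miR-673 (chr12:109571990-109572080) stands alone, 31.0 kb after the start of Meg3 and outside annotated host genes. miR-337 (chr12:109585789-109585885), miR-540 (chr12:109586080-109586146) and miR-665 (chr12:109586314-109586407) follow each other closely, with starts 291 and 234 bases apart, also outside host genes. miR-341 (chr12:109611500-109611595) and miR-370 (chr12:109618258-109618336) lie in introns of Rian. The last of them is still 90.8 kb ahead of miR-379. miR-3544, annotated on the opposite strand over miR-337, had 0 counts in every library for either arm.

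All 10 arms were more abundant in each TAA library than in either control, and 8 of them passed the test as higher, with 0 lower. Among all 644 miRNAs tested, 14.0% passed as higher and 2.64% as lower, and in 29.7% both TAA libraries lay above both controls. Raw counts were compared by the quasi-likelihood F test of edgeR, adjusted over those 644 by Benjamini-Hochberg, at a threshold of 0.05. The arms are 6 hairpins of 1 region, not 10 independent observations. Fitted log2 fold changes of the 10 ran from 2.45 to 3.86 with a median of 3.23, where the median of all miRNAs tested was -0.0042. Counts were low, from 0 to 81 per library in control and 11 to 725 in TAA liver, in libraries of 42609845 to 48878003 miRNA counts. The filter on low counts asks for about 0.222 CPM in 2 libraries. miR-673-5p, miR-337-5p, miR-540-3p and miR-341-3p met it in the controls as well, and the other 6 arms passed it through the TAA libraries alone, which favours a difference in them, so the count that passed is a description. In RNA from whole tissue, more cells that make a miRNA and more of it per cell cannot be told apart.

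**Figure D1:**
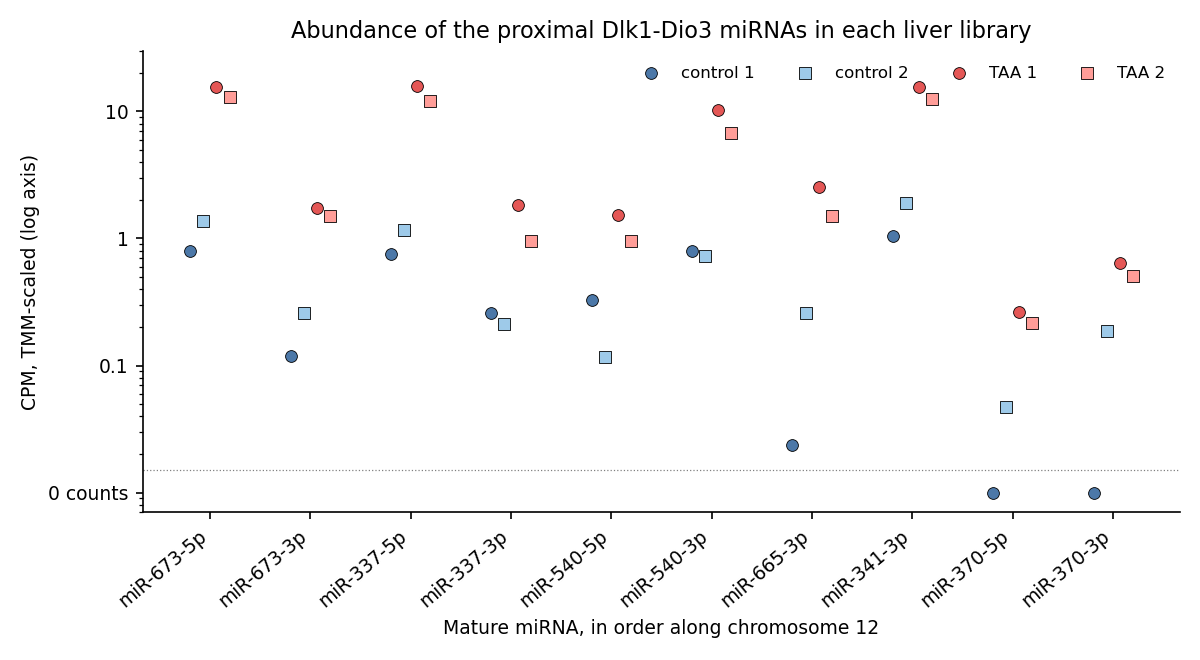
Abundance of each arm (CPM scaled with TMM factors, log axis) in the 4 libraries, in order along the chromosome, with circles for replicate 1 and squares for replicate 2 and points under the dotted line for 0 counts. In all 10 arms the red TAA points lie above the blue control points, and TAA 1 lies above TAA 2.

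miR-673, the first of the 6 hairpins along the chromosome, gave mostly its 5p arm. mmu-miR-673-5p was counted 34 and 59 times in the control libraries and 702 and 661 times after TAA. The TAA libraries lay close together and far above either control. It rose to 14.2 ± 1.81 CPM from 1.09 ± 0.41 (mean ± SD, n = 2 in this and the following values), by 3.69 on the log2 scale (SE 0.29; adjusted p = 5.49e-05, edgeR). miR-673-3p, the lesser arm, was counted 5 and 11 times in the control libraries and 79 and 77 times after TAA. It rose to 1.62 ± 0.17 CPM from 0.19 ± 0.098, by 3.09 on the log2 scale (SE 0.47, edgeR adjusted p = 0.00225). Without control 1 that change was 2.62 and without control 2 it was 3.74.

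In the trio that follows, the leading arm was 5p in miR-337 and 3p in miR-540 and miR-665. mmu-miR-337-5p was counted 32 and 50 times in the control libraries and 725 and 616 times after TAA. It rose to 14.0 ± 2.79 CPM from 0.96 ± 0.29, by 3.86 on the log2 scale (SE 0.29; adjusted p = 4.41e-05, edgeR). Its partner mmu-miR-337-3p was counted 11 and 9 times in the control libraries and 83 and 49 times after TAA, so that the controls lay close together and the TAA libraries apart. It rose to 1.39 ± 0.62 CPM from 0.24 ± 0.035, by 2.55 on the log2 scale (SE 0.49; adjusted p = 0.00883).

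mmu-miR-540-3p was counted 34 and 31 times in the control libraries and 466 and 348 times after TAA, and rose to 8.52 ± 2.45 CPM from 0.76 ± 0.055, by 3.47 on the log2 scale (SE 0.29; adjusted p = 6.47e-05, edgeR). Its controls were nearly equal and TAA 1 was the higher of the TAA libraries. mmu-miR-540-5p was counted 14 and 5 times in the control libraries and 69 and 49 times after TAA, and here control 1 was the higher control. It rose by 2.45 on the log2 scale (SE 0.55; adjusted p = 0.0185). Without control 1 that change was 3.35 and without control 2 it was 1.88. miR-665-3p was the arm whose controls differed most as a ratio among those detected in both, with 1 and 11 counts, against 115 and 77 in TAA liver. It rose to 2.02 ± 0.73 CPM from 0.14 ± 0.17, by 3.81 on the log2 scale (SE 0.69; adjusted p = 0.00635). Without control 1 that change was 2.93 and without control 2, which leaves the library with 1 count, 6.25. The other arm, miR-665-5p, had 0 counts in every library, which beside 115 counts of miR-665-3p in TAA 1 allows it a share of up to 2.61% there.

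The hairpins inside Rian, miR-341 and miR-370, differed widely in abundance. miR-341-3p was the most abundant of the 10 in each control, with 44 and 81 counts, and had 709 and 644 in TAA liver. It rose to 14.1 ± 2.15 CPM from 1.47 ± 0.60, by 3.26 on the log2 scale (SE 0.31; adjusted p = 0.000126, edgeR). In TAA liver miR-341-3p, miR-673-5p and miR-337-5p lay between 12.0 and 15.95 CPM and overlapped, so their order there is not resolved.

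miR-370 was the scarcest hairpin, and neither of its arms passed. mmu-miR-370-3p was counted 0 and 8 times in the control libraries and 29 and 26 times after TAA, and its fitted log2 difference was 2.57 (SE 0.87; adjusted p = 0.0964, edgeR), or 1.58 without control 1. The count of 0 in control 1 allows up to 0.0709 CPM. mmu-miR-370-5p was counted 0 and 2 times in the control libraries and 12 and 11 times after TAA (adjusted p = 0.0586), with a fitted log2 difference of 3.20, or 2.27 without control 1. The ratio of its pooled TAA to pooled control counts, scaled to library size, was 10.1 with a 95% interval of 2.50 to 88.5, which covers counting error only. For miR-370-3p that ratio was 6.05 (2.86 to 14.7). Both TAA libraries lay above both controls in each arm, and the fitted differences had SEs of 0.87 and 0.96, the largest of the 10.

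The arms of each hairpin kept their order in every library with counts for the hairpin. Both arms were counted for miR-673, miR-337, miR-540 and miR-370. The 5p arm made up 87.2% and 84.3% of miR-673 counts in control and 89.9% and 89.6% in TAA liver. For miR-540 it made up 29.2% and 13.9% in control and 12.9% and 12.3% in TAA liver, where control 1 stood apart. For miR-370, which had no counts in control 1, it made up 2 of 10 counts in control 2 and 29.3% and 29.7% in TAA liver. miR-341-5p appeared only in TAA liver, with 4 and 1 counts, and was not detected among the 44 and 81 counts of its hairpin in control, which allows a share of up to 6.82% and 3.70%.

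The hairpin of miR-337 is shown, with the arms in capitals (5p first), because its fitted arm ratio differed most between the groups of those tested.
Mir337: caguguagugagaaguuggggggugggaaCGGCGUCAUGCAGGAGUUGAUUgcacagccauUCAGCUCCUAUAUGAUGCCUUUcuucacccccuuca
Its 5p arm took 74.4% (95% Wilson interval 59.8% to 85.1%) and 84.7% (73.5% to 91.8%) of counts in control, and 89.7% (87.4% to 91.6%) and 92.6% (90.4% to 94.4%) in TAA liver. The groups did not overlap, though the intervals of control 2 and the TAA libraries did. The shares of miR-673 and miR-540 did not overlap between the groups either, and how many of all hairpins separate so was not counted. The log2 ratio of 5p to 3p was 1.42 higher in TAA liver (SE 0.36, limma adjusted p = 0.668 over 150 hairpins). For miR-673 it was 0.61 higher (SE 0.19, limma adjusted p = 0.836) and for miR-540 the difference was -0.90 (SE 0.42, limma adjusted p = 0.985), and miR-370 had too few counts for this test. Of the 150 hairpins 0 passed limma's adjusted threshold (0.0%). An unadjusted limma p under 0.05 was found for 5 (3.33%), among them miR-337 and miR-673, a share below what no difference at all would give. The call turned on the controls, in fits that hold 1 control library. There limma gave miR-673, miR-337 and miR-540 the same SE, 0.32 without control 1 and 0.27 without control 2. That SE does not reflect the few counts of a hairpin, such as 32 and 11 for miR-337 in control 1. The passes in these fits are therefore no evidence of a shift. The log2 difference of miR-337 was 0.97 without control 1 and 1.88 without control 2, and that of miR-540 -0.26 and -1.53. Without control 1, miR-337 passed (limma adjusted p = 0.046), as did 7.1% of hairpins, and without control 2 miR-337 (3.87e-09) and miR-540 (1.90e-06) passed, as did 8.55%.

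**Figure D2:**
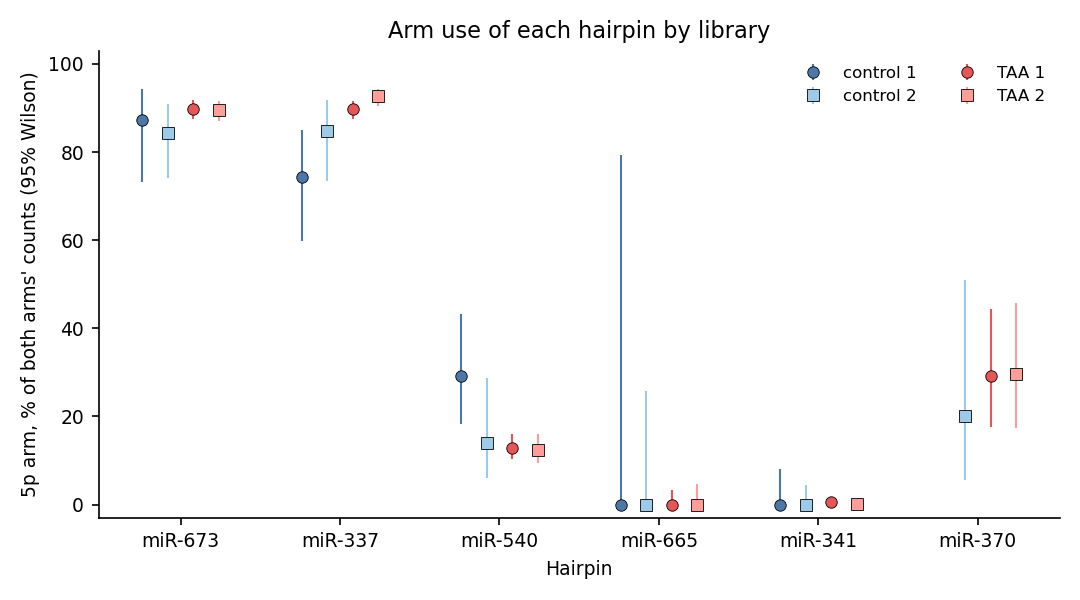
Share of the 5p arm in the counts of both arms of each hairpin (percent, with 95% Wilson intervals for counting error) in each library. miR-673 and miR-337 lie near the top and miR-540, miR-665, miR-341 and miR-370 low in the plot, and the control intervals are wide because the counts are few.

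The make-up of the set was described by the share of each arm within a library. The 10 arms together were counted 175 and 267 times in the control libraries and 2989 and 2558 times after TAA, or 4.13 and 6.25 CPM against 65.8 and 49.9 CPM. miR-673-5p, miR-337-5p, miR-540-3p and miR-341-3p, the most abundant arms, held 82.3% and 82.8% of these counts in control and 87.1% and 88.7% in TAA liver. Within the set, the shares of miR-673-5p and miR-337-5p lay above both controls in each TAA library, that of miR-337-3p was lower, and those of the other 7 overlapped. miR-337-5p went from 18.3% and 18.7% to 24.3% and 24.1%, and miR-337-3p from 6.29% and 3.37% to 2.78% and 1.92%. These shares were given no test. With 2 libraries in each group, random order alone would separate the groups for an arm with a probability of 0.333. The separations therefore describe the counts and are no evidence of a shift.

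**Figure D3:**
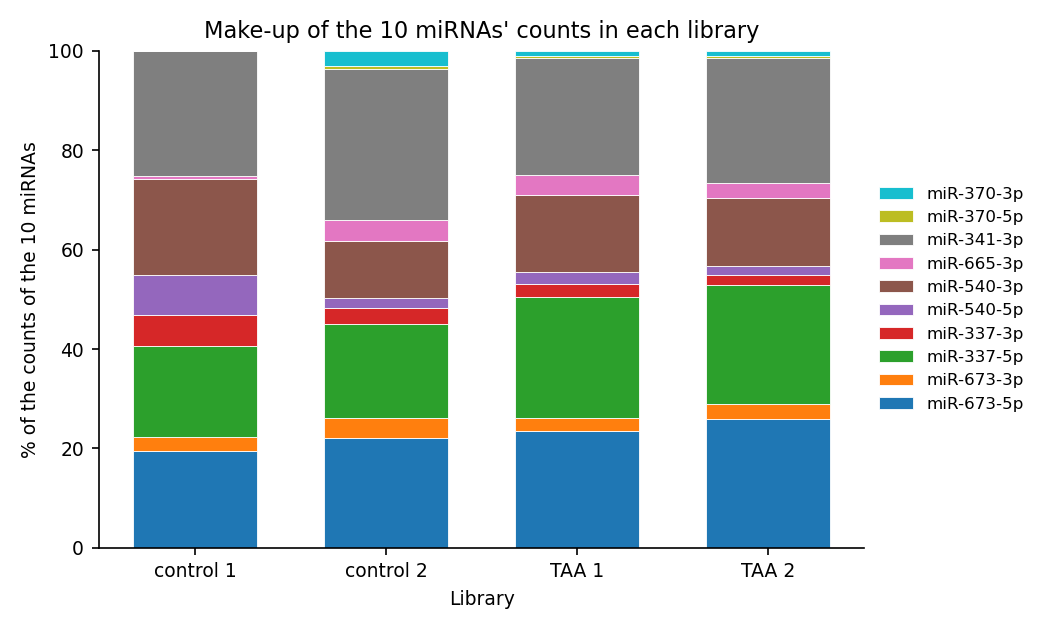
Share of each arm (percent) in the summed counts of the 10 arms, 1 bar per library, stacked in order along the chromosome from the bottom. miR-673-5p, miR-337-5p, miR-540-3p and miR-341-3p fill 82.3% to 88.7% of every bar.

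The part of the region's miRNA output held by the 10 arms overlapped between the groups. Of all counts of the 115 mature names placed from Meg3 to Mirg, they made up 2.04% (95% Wilson interval 1.76% to 2.36%) and 2.56% (2.28% to 2.88%) in control, and 2.15% (2.07% to 2.22%) and 2.14% (2.06% to 2.23%) in TAA liver. The TAA values lay between the controls. The output of the whole region went from 8599 and 10424 counts to 139290 and 119340.

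The other miRNAs of the region were set beside them by position. Of all 644 miRNAs tested, 14.0% passed as higher. Scarce names of the region could also meet the filter on low counts through the TAA libraries alone, which favours a difference in them. The counts that passed and the medians below are therefore descriptions. Of the 10 Rtl1-antisense arms, 9 were tested, 8 passed as higher and 0 as lower, and the median log2 difference was 3.36. The most abundant of that group, miR-434-3p, went from 33.6 and 27.6 CPM to 357 and 269 CPM. Of 77 names from miR-379 onward, 65 had counts, 48 were tested and 45 of these passed as higher and 0 as lower. The median log2 difference was 3.75, or 3.71 with the 1 miRNA that had no control counts set at the bound its floor of 3 counts gives. miR-411-5p, the most abundant there, went from 64.6 and 77.4 CPM to 949.7 and 752 CPM. The median of 3.23 for the arms of the 6 hairpins lay below those of both groups, and that difference was not tested. The arms of the 6 hairpins were also scarcer, at a summed 65.8 and 49.9 CPM in TAA liver. The Rtl1-antisense arms summed to 849 and 652 CPM there, and the names from miR-379 onward to 2149.5 and 1624 CPM.

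Proximal hairpins outside the 6 were scarcer still. Of the 10 names of miR-770, miR-493, miR-1188, miR-3070 and miR-1906, 5 had no counts at all. miR-493-5p, whose hairpin lies between miR-673 and miR-337, was the 1 tested. It was counted 1 time in control 1, not in control 2, and 14 and 23 times after TAA (edgeR adjusted p = 0.0103). It met the filter on low counts through the TAA libraries alone, which favours a difference. Its pooled ratio was 32.5 with a 95% interval of 5.49 to 1319.

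**Figure D4:**
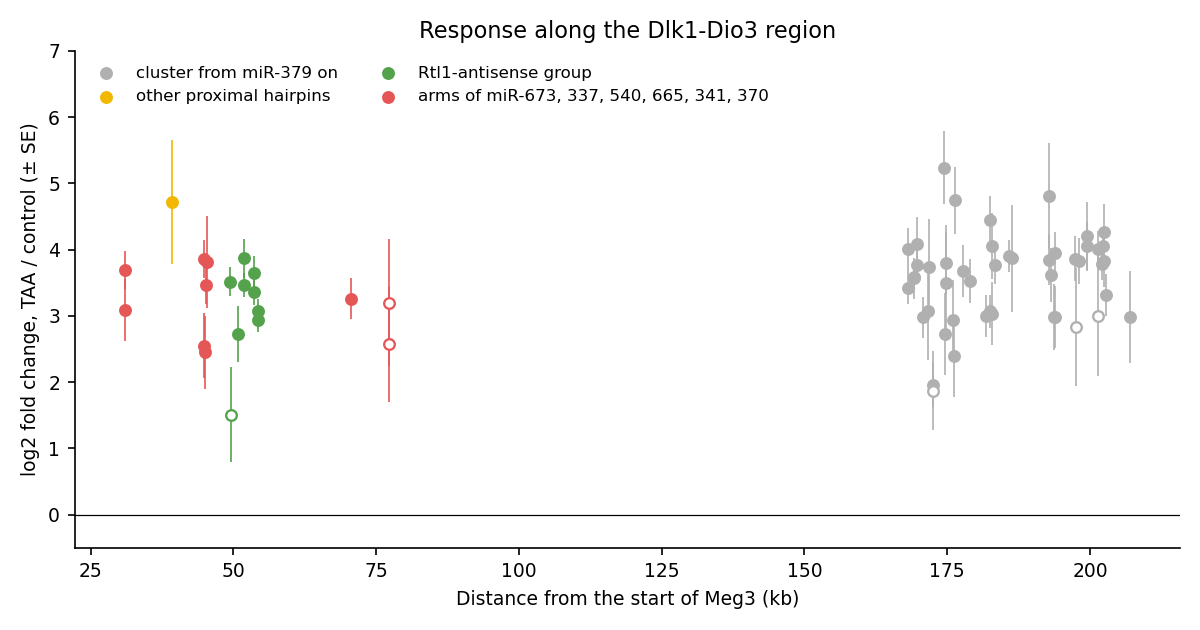
Fitted log2 fold change of each tested miRNA of the region (± SE) against the distance of its annotated sequence from the start of Meg3 in kb, filled where the edgeR adjusted p was under 0.05. The arms of the 6 hairpins (red) run from 2.45 to 3.86, and 1 miRNA with no control counts is not drawn.

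The miRNAs with the most similar profile over the 4 libraries all came from beyond miR-379. Likeness was the Euclidean distance between log2 CPM profiles, each centred on its own mean, from the mean profile of the 10 arms, over 634 other tested miRNAs. The nearest were miR-376c-3p at 0.27, miR-410-3p at 0.31, miR-380-3p at 0.33, miR-758-3p at 0.38 and miR-667-3p at 0.41, where the median distance was 3.11. The 40 nearest all lie in the region, and the nearest miRNA outside it stood at 1.07. The 10 arms themselves lay between 0.25 (miR-673-3p) and 1.53 (miR-540-5p) from their mean. With 4 libraries this describes the profiles and is no test.

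Within the TAA group the 10 arms were all higher in TAA 1 than in TAA 2, as were 56 of the 68 tested miRNAs of the region and 52.3% of all those tested. The erythroid list ran the other way, with a summed 731 CPM in TAA 1 and 2627 CPM in TAA 2 against 445 and 274 CPM in control. All 5 of its miRNAs passed as higher, as did 14.0% of all miRNAs tested. Of the 7 leukocyte miRNAs 3 passed as higher, and the fitted log2 differences of all 7 ran from 0.28 to 1.34. The leukocyte sum was 1216 and 1808 CPM in control and 2501 and 2070 CPM in TAA liver. Of the 5 mesenchymal miRNAs 1 passed as higher, with sums of 27759 and 28077 CPM in control and 31605 and 23348 CPM in TAA liver. None of the 6 hepatocyte miRNAs and neither endothelial miRNA passed. The fitted log2 differences of the 6 hepatocyte miRNAs ran from -0.49 to -0.14. In 5 of these 6 both TAA libraries lay below both controls, as in 25.6% of all miRNAs tested. The hepatocyte sum was 350633 and 381076 CPM in control and 318213 and 329150 CPM in TAA liver, and the endothelial sum 25346 and 29185 against 26409 and 22655 CPM. Of the 6 neural miRNAs, markers of a tissue where the region is active, 4 were tested and 0 passed, with sums of 53.5 and 53.4 CPM in control and 46.3 and 56.5 CPM in TAA liver. No marker on these lists was at 0 in all libraries. The part of the cell types that moved in the rise of the 10 arms was not tested.

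Control 1 carried more pancreatic miRNA than the other libraries. miR-375-3p stood at 103.3 CPM there and between 8.47 and 10.2 CPM elsewhere, miR-217-5p at 2.95 CPM against at most 0.13 and miR-216a-5p at 2.67 CPM against at most 0.22. The pancreas list, with 2 of 3 tested, had 0 passing, and of the 3 muscle miRNAs the 1 tested did not pass, at sums of 3.78 and 4.82 CPM in control and 2.60 and 3.002 CPM in TAA liver. The 10 arms summed to 4.13 CPM in control 1 and 6.25 CPM in control 2. Without control 1 their fitted log2 fold changes ran from 1.58 (miR-370-3p) to 3.56 (miR-337-5p), in a fit that holds 1 control library. Whether the pancreatic miRNA of control 1 bears on the 10 arms was not tested.

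Calls on the scarce arms depended on having both TAA libraries. Without TAA 1 the arms that passed numbered 4 (7.53% of all miRNAs tested passed as higher), and without TAA 2, 5 (6.87%). miR-673-5p, miR-337-5p, miR-540-3p and miR-341-3p passed in all 4 fits that leave out 1 library, with log2 fold changes from 2.87 to 4.195 in them. miR-337-3p passed without TAA 2 and not without TAA 1 (edgeR adjusted p = 0.184). Of the others that passed with all libraries, miR-673-3p, miR-540-5p and miR-665-3p failed without either TAA library, with adjusted p-values from 0.0639 to 0.303.

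**Figure D5:**
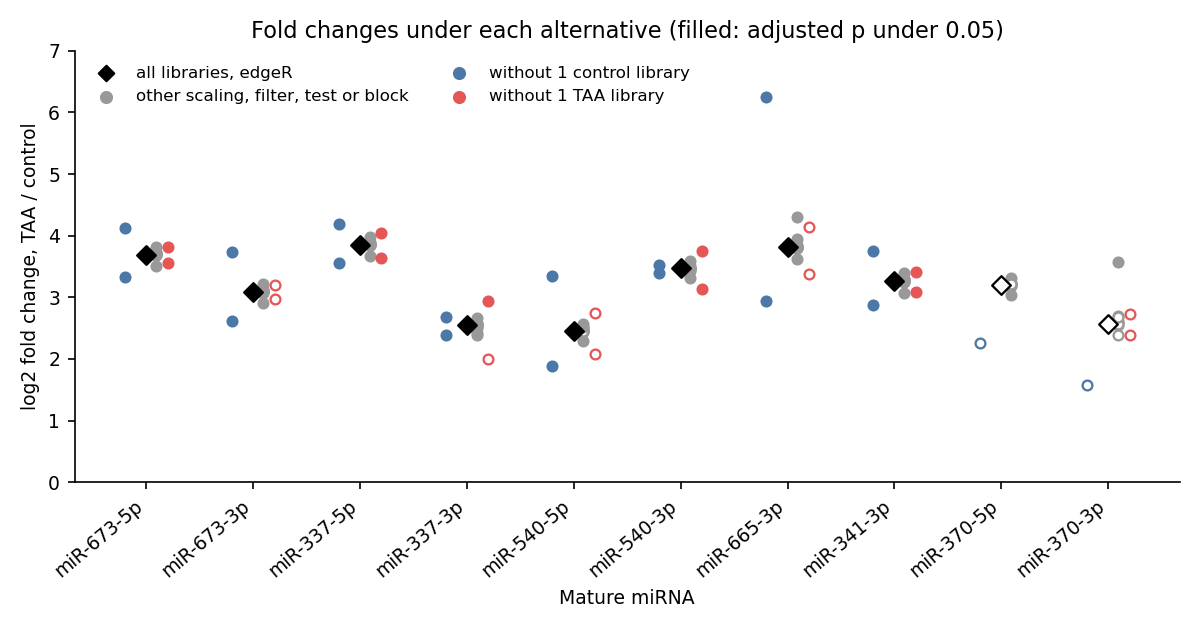
Log2 fold change of each arm under every alternative that gave a value, filled where the adjusted p was under 0.05, with black diamonds for all libraries and TMM factors. Values without control 2 are left out for the miR-370 arms, whose remaining control had 0 counts, and all values drawn lie above 0.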

How the data were processed

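Small RNA libraries were prepared with the TruSeq small RNA kit from miRNeasy total RNA, per the labels' protocols. The deposited values are raw read counts per mature miRNA, for which the submitters' processing notes name Bowtie, HTSeq and the mm10 build. Not given in the sources used here are their versions, the strand setting and the handling of multiply aligned reads. Rows that name no miRNA held 31.3% to 34.6% of reads and were left out. Replicates differed beyond sampling noise (chi-square per degree of freedom 237 in control, 324 in TAA).

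The comparison of counts used edgeR 4.0.16 under R 4.3.3, with its expression filter, TMM factors and quasi-likelihood F test, on all miRNAs; a standard error is the log2 fold change over the square root of F. Arm ratios, log2 of 5p over 3p counts plus 0.5, were compared by limma 3.58.1 where 5p and 3p each averaged at least 20 counts. DESeq2 1.42.0 and limma-voom were alternatives. The procedures were checked on simulated counts, for abundance with smaller changes than those fitted for the arms described. Fits that leave out a library were not simulated, so the check does not cover them. Names were placed by GENCODE and RefSeq annotation of GRCm38, which is mm10; of the 115 of the region, 111 matched by mature name and 4 by hairpin. Intervals are Wilson, or exact for count ratios, and cover counting error only.

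All 10 arms are named, with the 5 miRNAs nearest in profile (prior count 2) and the most abundant miRNA of the other groups of the region. The single marker miRNAs given were chosen after their values were seen. Members and lists were chosen with earlier results of these data known.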

Additional observations from a re-analysis of the deposited data

How the results depend on the processing

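The 10 arms were higher in TAA liver under every alternative that gave a value. Of their 135 fold changes, 119 kept their side of the threshold, 8 lost it and 8 gained it. The share of all miRNAs tested that passed as higher is given in brackets. Of the 10 arms, 8 passed with DESeq2 size factors (13.5%) and with TMM factors computed without the region (13.7%). DESeq2 also gave 8 (12.5%), with no adjusted p for miR-370-5p. At least 1 CPM in 2 libraries gave 8 (15.0%), and the miR-370 arms fell below that filter. Upper-quartile factors, under which the median log2 difference of all miRNAs was -0.17, gave 9 (12.9%), as did no filter (8.36%). Library size alone, where that median was 0.12, gave 10 (16.6%), as did limma-voom (14.0%). A fold change minimum of 2 gave 7 (9.01%). Leaving out 1 library gave 4 to 10 arms, against 8, and 0 to 2 of the hairpins' arm ratios, against 0; a group left with 1 library is assumed to vary like the other. Of all miRNAs, 107 of 644 (16.6%) passed in either direction in the main fit. A fold change minimum of 2 gave 60 of 644 (9.32%), and no filter 137 of 1256 (10.9%). With the replicate number as a block 8 arms (14.3%) and 0 arm ratios passed, and 110 miRNAs in all. Nothing in the labels pairs equal numbers, and the deviations of control 1 and TAA 1 correlated at -0.053 over 644 miRNAs. Counts of 0 to 11 in a control limit miR-370, miR-665-3p, miR-673-3p, miR-540-5p and miR-337-3p.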

Other observations

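Of the 10 seeds, 3 are shared with another mouse miRNA of the RefSeq table. miR-370-5p shares bases 2 to 8 with miR-1193-3p, whose hairpin lies beyond miR-379 in the same region. miR-1193-3p was counted 4 and 8 times in the control libraries and 105 and 86 times after TAA. It rose (log2 fold change 3.79, SE 0.47, edgeR adjusted p = 0.000606). It met the filter on low counts through the TAA libraries alone, which favours a difference. The AGGUCAC seed was carried by more counts of miR-1193-3p than of miR-370-5p in every library. miR-673-5p shares its seed with miR-6985-3p, which was counted 12 and 11 times in the control libraries and 21 and 13 times after TAA (adjusted p = 0.740). miR-540-3p shares its seed with miR-6915-5p, which had 1 count, in control 2. miR-341-3p is a repeat, with the word CGGU found 4 times in its 21 bases.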
